A study of Mus musculus with 2 samples.

Results

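The alveolar wall of a lung that carried breast cancer metastases was compared with that of a control lung, across genes. The wall is represented by 775 of 2998 spots of 2 Visium sections, chosen by their own transcripts: 494 of 1888 spots over tissue came from the control lung and 281 of 1110 from the metastatic lung. Spots with at least 1000 counts were scored by the mean natural log of (1 + counts per 10000) of Ager, Hopx, Rtkn2, Clic5, Emp2 and Akap5, genes of alveolar type I (AT1) cells. The top 30% within each section were taken (559 and 331 spots), and those also in the section's top 10% for the alveolar type II (AT2) genes Lamp3, Slc34a2, Abca3 and Napsa were removed (65 and 50 spots).

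Visium captures polyadenylated RNA on a slide of barcoded spots, so each spot is a small area of tissue that can hold several cells of different types. The metastatic lung came from a mouse injected with 4T1 mammary carcinoma cells into a mammary fat pad, from where tumours seed the lung. Per the study's methods, this model used 1000000 cells, female Balb/c mice of 6 to 8 weeks and collection at 21 to 23 days. The control lung is labelled as untreated; the strain and age of its mouse are not given separately in the sources used here. Tissue was fresh-frozen and permeabilized for 18 min in both sections. Each group was 1 section, so no p-value could be given, and the intervals below are exact 95% intervals that cover counting error only, not the spread between animals. Spots of 1 section share that section and are not replicates. A ratio is always metastatic over control, of counts summed over the wall spots per 10000 counts (CP10k).

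The alveolar wall is the surface of gas exchange. Flat AT1 cells cover most of it, AT2 cells secrete surfactant and renew AT1 cells, and both epithelial types share a thin basement membrane with a dense bed of capillaries in which aerocytes and general capillary cells alternate. Fibroblasts and pericytes lie between them, and the narrow capillaries hold a standing pool of neutrophils. Mice that carry 4T1 tumours are known for an expansion of circulating neutrophils.

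The spots were checked against markers that the rule had not used. A list of 20 other AT1 genes, among them Aqp5, Pdpn, Igfbp2 and Krt7, was 1.87-fold higher in wall spots than in the other spots of the control section. In the metastatic section it was 1.54-fold higher than in the other spots, with the metastasis-like spots defined below left out. The pan-endothelial list was 1.80-fold and 1.81-fold higher in the same comparisons, and the airway list of club and ciliated cell genes lower, at 0.203 and 0.275. Other lists were lower than in the other spots in the control but higher in the metastatic section. Haemoglobin genes stood at 0.231 and 1.39, large vessel endothelial genes at 0.916 and 1.37 and adventitial fibroblast genes at 0.844 and 1.23. In these transcripts the wall spots of both sections were thus not alike. These spots were selected on AT1 transcripts, so these values are a description. Wall spots held 4932678 counts in the control and 3145711 in the metastatic section, with medians of 9846.5 (1021 to 21981) and 10788 (1872 to 23164) counts per spot. Of the slide barcodes, 858 occurred in both sections and 56 in wall spots of both, as capture areas use the same barcode set.

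The share rule set a different cut in each section. In the control lung the last spot inside scored 2.090 and the first outside 2.089, and in the metastatic lung 1.848 and 1.847; 86 of the 281 metastatic wall spots reached the control's cut. The 6 genes of the rule summed to 88.9 CP10k in the control and 63.2 in the metastatic wall. All 6 were lower, from Ager at 43.1 and 28.5 CP10k (the receptor for advanced glycation end products, RAGE, which marks AT1 cells) to Clic5 at 5.83 and 5.05.

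Transcripts of other tissues were also counted in these spots, and their part in the results below was not tested. The club cell secretoglobin Scgb1a1 was 3.82% of wall counts in the control and 7.33% in the metastatic section, haemoglobin genes had a median of 109 and 527 CP10k per spot, and 11 of 11 cardiac muscle genes compared were at least 2-fold lower, with Myl7 at 1154 and 0 counts. Together, Scgb1a1, haemoglobin and cardiac genes took 5.51% and 13.2% of wall counts. The ratio over all 9207 genes with at least 100 counts had a median log2 of -0.16, and -0.04 once those genes were left out of the totals, a shift of 0.12 that applies to every gene. Values below are on full totals, and the median of all genes is their reference.

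Of the 9207 genes, 85 (0.923%) were at least 2-fold higher and 132 (1.43%) at least 2-fold lower in the metastatic wall. With the reduced totals, 114 (1.24%) were higher and 83 (0.901%) lower, so the share of called genes on the higher side went from 39.2% to 57.9%. The other spots of the sections were compared in the same way, without the metastasis-like spots. There, 52 of the 85 genes were also at least 2-fold higher in the metastatic lung, and 53 of the 132 were also at least 2-fold lower. Of the 85, 8 were below 1 in those other spots, and none of the 132 was above 1. Over all 9207 genes, the median log2 ratio in those other spots was -0.087. The share of all genes past 2-fold there was not counted, so these overlaps are a description only.

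**Figure D1:**
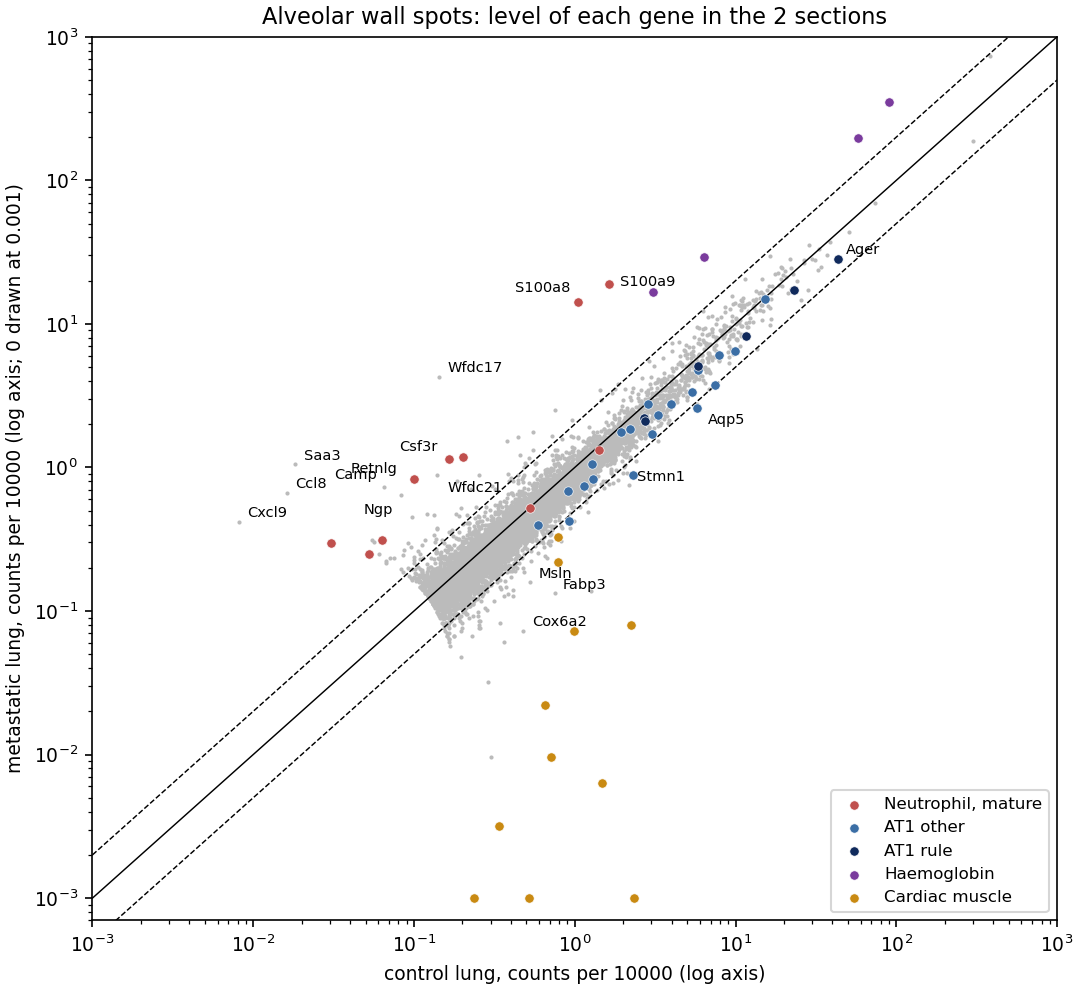
Level of each of 9207 genes in the alveolar wall of the control (x axis) and metastatic lung (y axis), in summed counts per 10000 on log axes, with 1 section each; a level of 0 is drawn at 0.001. The solid line marks equal levels and the dashed lines 2-fold; 8 of 10 mature neutrophil genes and the haemoglobin genes lie above the upper dashed line, AT1 genes at or below the solid line, and the 11 cardiac muscle genes below the lower dashed line.

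Neutrophil transcripts were higher in the metastatic wall. The 12 genes of mature neutrophils summed to 5.29 CP10k in the control wall and 39.1 in the metastatic wall, a ratio of 7.39 (7.08 to 7.71), and 8 of the 10 with enough counts were at least 2-fold higher. The median log2 ratio of these 10 was 2.66, against -0.16 over all genes. Over single wall spots, the control ran from 0 through a median of 3.88 to 42.3 CP10k and the metastatic lung from 8.62 through 30.6 to 208.5 CP10k. The ranges overlapped, but the lowest metastatic spot was above the control median. In the metastatic wall, the top 29 of 281 spots held 29.5% of these counts; the same number of spots held 19.2% of the counts of the other AT1 genes.

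S100a8 and S100a9, which encode both subunits of calprotectin, the most abundant cytosolic protein of neutrophils and a ligand of RAGE, carried most of these counts. S100a8 was at 1.04 CP10k in the control and 14.1 in the metastatic wall, 13.5-fold higher (12.4 to 14.9), and was counted in 42.1% and 98.9% of wall spots. S100a9 was at 1.64 and 19.0 CP10k, 11.6-fold higher (10.7 to 12.5), and was counted in every metastatic wall spot. Receptors of neutrophils were also higher: Csf3r, the receptor of G-CSF, was 6.85-fold higher (5.37 to 8.81), from 82 to 358 counts, and the chemokine receptor Cxcr2 9.72-fold (5.60 to 18.1), from 15 to 93. Retnlg, a resistin-like protein of neutrophils, was 8.35-fold higher, Il1b, the inflammatory cytokine, 5.92-fold and the gelatinase Mmp9 4.96-fold. Hdc, which makes histamine, and G0s2, an inhibitor of lipolysis, were the members compared that did not differ by 2-fold, at ratios of 0.991 and 0.935. Of the 6 RAGE ligands compared, a list that shares the calprotectin pair, S100a8, S100a9 and S100a4 were at least 2-fold higher, while Hmgb1 was at 1.11.

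Granule genes made before neutrophils leave the marrow were also higher, by less when summed as a list. The 12 granule genes stood at 2.88 (2.64 to 3.15) in the wall and 1.92 (1.81 to 2.04) in the other spots. Of the 5 compared, 4 were at least 2-fold higher, and their median log2 ratio was 2.50, near the 2.66 of the mature list. Camp, the cathelicidin, had 32 counts in the control and 230 in the metastatic wall (11.3-fold, 7.76 to 16.9), the granule protein Ngp 41 and 201 (7.69-fold) and lactoferrin, Ltf, 27 and 99 (5.75-fold), although Ltf was at 0.544 in the other spots. The summed list held 760 counts in the control and 1398 in the metastatic wall, most of them from members other than Camp, Ngp and Ltf. With the top 20% of spots, Camp was 18.8-fold and Ngp 14.9-fold higher, and with spots thinned to 5000 counts 7.95-fold and 5.51-fold. Of the genes of the earliest, azurophil granules, Mpo had 0 and 21 counts, Elane 1 and 5 and Ctsg 0 and 6, too few to compare. Camp and Ngp were counted in 27.8% and 19.2% of metastatic wall spots, far fewer than S100a8. The ratio of the mature list in the other spots of the section was 5.91 (5.74 to 6.08), so the wall stood 7.39-fold above its control and the remaining tissue 5.91-fold.

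**Figure D2:**
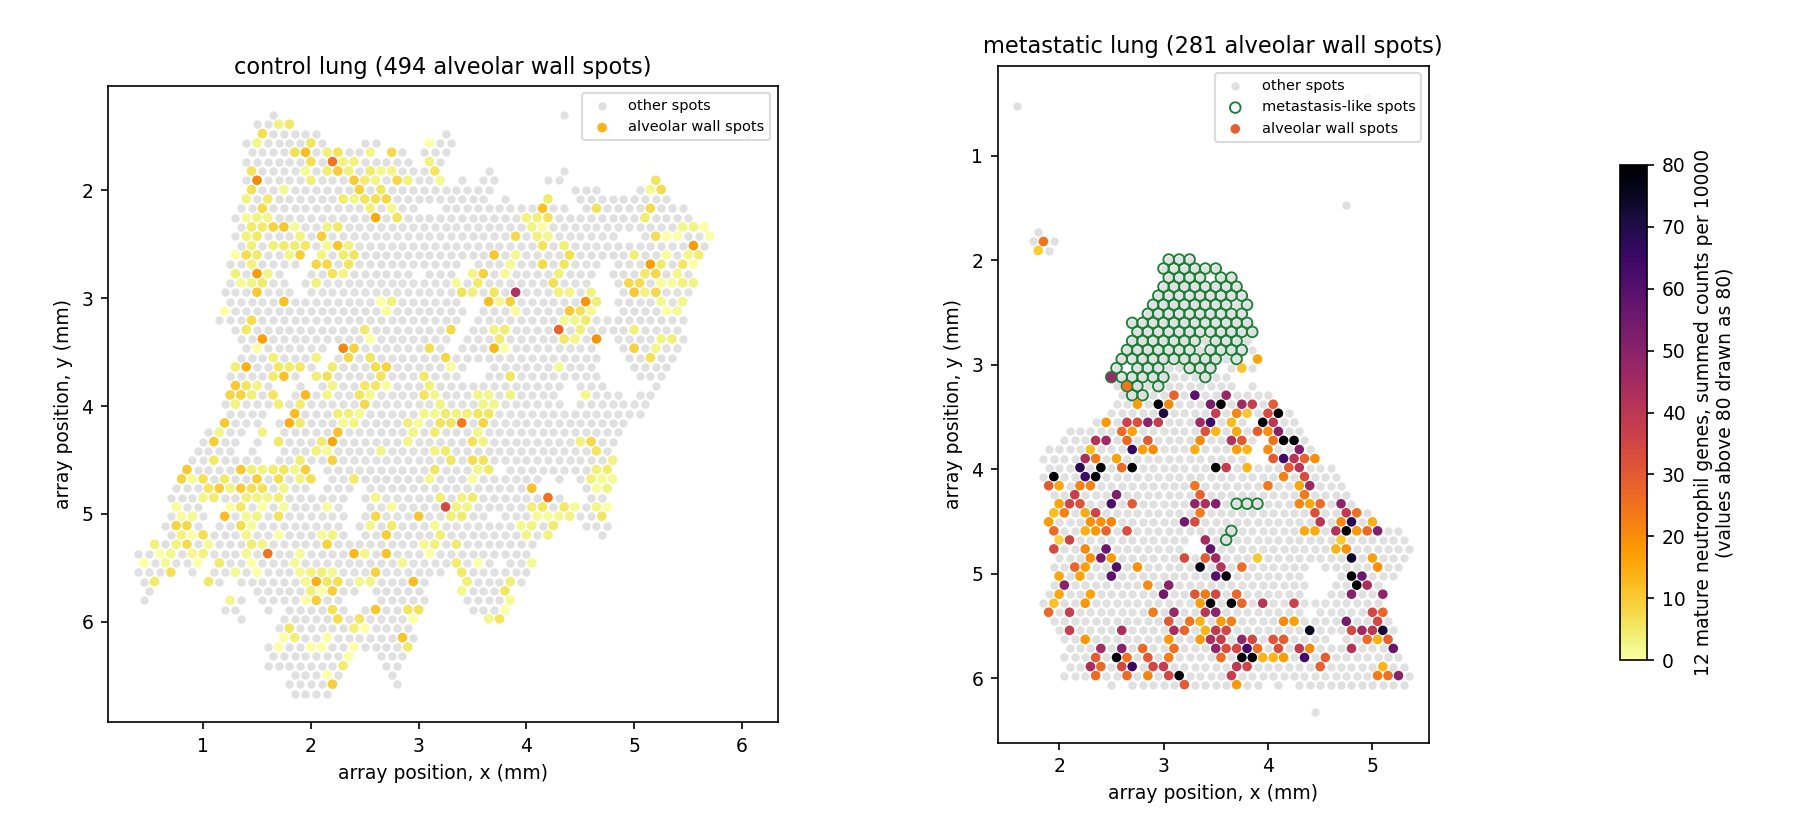
Position of the spots on the array (x and y in mm) in the control and metastatic sections, with the 494 and 281 alveolar wall spots coloured by the summed counts per 10000 of 12 mature neutrophil genes, other spots in grey, and metastasis-like spots ringed. Metastatic wall spots are higher (median 30.6 against 3.88) throughout the section, next to the large group of metastasis-like spots and away from it.

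Acute phase genes, which epithelium, liver and myeloid cells switch on under inflammatory cytokines, summed to 5.02 and 11.7 CP10k (2.34-fold, 2.22 to 2.46), and 4 of 7 compared were at least 2-fold higher, with a median log2 ratio of 1.13. Saa3, the serum amyloid A made locally in tissues, had the highest ratio of the genes with at least 200 counts: 9 counts in the control wall and 333 in the metastatic wall, 58.0-fold (30.2 to 128). It was counted in 6 of 494 and 121 of 281 spots and reached 31.3 CP10k in 1 spot, with a median of 0 in both sections. Lrg1, a secreted glycoprotein of endothelium and neutrophils, was at 0.758 and 2.52 CP10k (3.33-fold, 2.94 to 3.77), and Lcn2, the siderophore-binding lipocalin, at 0.493 and 1.08 (2.19-fold). Socs3, the feedback inhibitor of STAT3 signalling, was 3.14-fold higher (2.49 to 3.98). Haptoglobin, Hp, was at 2.88 and 5.51 CP10k, a ratio of 1.91, and the interleukin-1 receptor Il1r1 at 0.842.

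Promoters of 3 acute phase genes and of the calprotectin pair are shown because these members were high together. Each window runs from 250 bases before to 50 bases after the annotated start (RefSeq, GRCm38.p6, which is mm10), 5' to 3' on the gene's strand, and capitals mark matches on either strand to the C/EBP core TTGCNNAA, the STAT core TTCNNNGAA or the TATA box TATAAA.
Saa3, chr7:46715627-46715926, strand -: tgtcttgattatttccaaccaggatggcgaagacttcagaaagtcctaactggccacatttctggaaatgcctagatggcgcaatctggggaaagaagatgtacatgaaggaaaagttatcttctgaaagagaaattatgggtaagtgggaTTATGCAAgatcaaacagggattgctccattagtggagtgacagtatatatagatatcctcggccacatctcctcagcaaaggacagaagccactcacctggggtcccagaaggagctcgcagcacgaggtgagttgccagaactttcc
Lcn2, chr2:32387690-32387989, strand -: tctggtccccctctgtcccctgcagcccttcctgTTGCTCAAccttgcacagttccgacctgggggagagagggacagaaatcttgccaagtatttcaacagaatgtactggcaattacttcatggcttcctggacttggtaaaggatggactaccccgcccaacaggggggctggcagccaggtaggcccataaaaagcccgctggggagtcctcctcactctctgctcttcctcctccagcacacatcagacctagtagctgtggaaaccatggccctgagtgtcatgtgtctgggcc
Lrg1, chr17:56121897-56122196, strand -: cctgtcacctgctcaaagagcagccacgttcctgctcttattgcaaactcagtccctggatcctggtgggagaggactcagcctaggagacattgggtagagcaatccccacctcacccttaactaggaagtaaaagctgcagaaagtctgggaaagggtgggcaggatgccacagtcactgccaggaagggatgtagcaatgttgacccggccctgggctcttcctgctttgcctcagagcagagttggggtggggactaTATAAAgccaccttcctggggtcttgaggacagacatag
S100a8, chr3:90668821-90669120, strand +: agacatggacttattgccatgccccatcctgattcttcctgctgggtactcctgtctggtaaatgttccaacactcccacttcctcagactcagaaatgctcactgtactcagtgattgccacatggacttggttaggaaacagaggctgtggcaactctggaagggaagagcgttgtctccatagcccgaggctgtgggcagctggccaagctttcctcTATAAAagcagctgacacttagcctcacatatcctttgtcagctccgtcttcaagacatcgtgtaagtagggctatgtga
S100a9, chr3:90695672-90695971, strand -: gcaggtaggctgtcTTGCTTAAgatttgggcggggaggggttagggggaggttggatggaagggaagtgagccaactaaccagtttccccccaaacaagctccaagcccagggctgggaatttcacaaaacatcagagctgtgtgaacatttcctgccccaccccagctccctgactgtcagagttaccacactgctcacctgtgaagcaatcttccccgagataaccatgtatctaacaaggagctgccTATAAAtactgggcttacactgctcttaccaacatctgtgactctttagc
Saa3 held a C/EBP match at position -99 from the annotated start (itself 0, counted to the first base of the match), Lcn2 at -216 and S100a9 at -236. A TATA match lay at -30 in S100a8, at 11 in Lrg1 and at 0 in S100a9, and no match overlapped another in these windows. Of the 10 acute phase genes with a window, 7 held the C/EBP letters, among them the Saa3 relatives Saa1 and Saa2 and the fibrinogen chains Fga and Fgb, which had at most 3 counts in either wall; 4 held the STAT and 2 the TATA letters. Over all 32851 windows the share was 10.8% for C/EBP, 8.30% for STAT and 13.6% for TATA. Among the 11 mature neutrophil genes with a window, 2 held the C/EBP, 2 the STAT and 3 the TATA letters. The matches describe the letters in these windows and show no binding.

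Macrophage and monocyte lists differed among themselves: those of interstitial macrophages and classical monocytes were higher, and those of alveolar macrophages and nonclassical monocytes were not. The complement subunits C1qa, C1qb and C1qc, made by tissue macrophages, were 3.19-fold (2.76 to 3.71), 2.66-fold and 2.34-fold higher, and all 5 interstitial macrophage genes compared had ratios above 1, for a list ratio of 1.76 (1.68 to 1.84). The monocyte chemoattractant Ccl8 had 8 counts in the control and 210 in the metastatic wall, 41.2-fold (20.5 to 96.6; 16.3-fold with the control's AT1 cut and 66.9-fold with spots thinned to 5000 counts), and Wfdc17, a secreted protein of activated myeloid cells, 71 and 1351 (29.8-fold, 23.5 to 38.4), with a count in 93.6% of metastatic wall spots. Ccl2, Ccl7 and Ccl12, related chemoattractants, had 2, 2 and 6 counts in the control and 26, 23 and 54 in the metastatic wall. The classical monocyte list stood at 1.66, with Ly6c2 at 1.96, and the nonclassical list, most of which is Ace, also made by capillaries, at 0.999 (0.966 to 1.03). The alveolar macrophage list was at 0.910 (0.858 to 0.964), with Krt79 and Fabp4 at least 2-fold lower and Chil3, which neutrophils and monocytes also make, at 1.74.

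The B cell list and the T and NK cell list were lower in the wall, while the plasma cell list was higher. All 6 B cell genes compared had ratios under 1 and 4 were at least 2-fold lower (2 with reduced totals), with a summed level of 3.67 and 1.68 CP10k (0.459, 0.416 to 0.506); Ighd, of naive B cells, was at 0.340 and the receptor component Cd79a at 0.406. The T and NK cell list was at 0.705 (0.645 to 0.769), in which Gzma, a granzyme of NK and cytotoxic T cells, had the lowest ratio at 0.348 (0.266 to 0.450), while Cd3d was at 1.10. In the other spots of the sections, the T and NK cell list stood at 1.10 (1.04 to 1.17) and the B cell list at 0.791 (0.743 to 0.842). The plasma cell list was at 3.76 and 4.90 CP10k (interval of the ratio 1.21 to 1.39), and 1 of its 3 genes compared was past 2-fold: Igha, of immunoglobulin A, with 91 and 253 counts, was 4.36-fold higher (3.42 to 5.60).

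The epithelium of the wall was lower in its AT1 genes, though less so where both sections met the same AT1 cut. The 20 other AT1 genes summed to 83.2 CP10k in the control and 60.2 in the metastatic wall, a ratio of 0.723 (0.711 to 0.736). All 20 had ratios under 1 (Lmo7 and Prdx6 were above 1 with reduced totals), 4 were at least 2-fold lower, and their median log2 ratio was -0.55, against -0.16 over all genes. Over single spots, the list ran from 39.2 through a median of 82.0 to 176.4 CP10k in the control and from 29.6 through 57.2 to 127.8 in the metastatic wall, ranges that overlapped over most of their width. In a spot, fewer cells of a type and less RNA per cell cannot be told apart.

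Among the AT1 genes past 2-fold, Lama3, a laminin chain of epithelial basement membrane, was at 0.460 (0.376 to 0.559). Aqp5, the apical water channel of AT1 cells, was at 5.79 and 2.61 CP10k (0.451, 0.417 to 0.488), and the keratin Krt7 at 7.48 and 3.73 (0.499, 0.467 to 0.533). Pdpn, Igfbp2, Spock2 and Gprc5a lay between 0.572 and 0.698. Other AT1 genes were near 1: Prdx6, an antioxidant enzyme also of AT2 and airway cells, at 0.986 and Lmo7, a junction-associated protein, at 0.977. With reduced totals, Aqp5 remained at least 2-fold lower and Krt7 and Lama3 did not. In the other spots of the sections, the AT1 list stood at 0.879 (0.868 to 0.890), with Aqp5 at 0.566. Where only the 86 metastatic spots past the control's AT1 cut were used, the list ratio was 0.874, nearer 1 than 0.723. As those 86 spots were the metastatic wall spots with the highest AT1 scores, a list ratio nearer 1 was built into that choice. What the different cuts contributed to 0.723 was not tested. The AT1 score and the list had a rank correlation of 0.531 over the metastatic wall spots.

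Genes of AT2 cells, the source of surfactant, were lower as a list at 0.666 (0.660 to 0.671), with 0 of 12 past 2-fold and a median log2 ratio of -0.48. Sftpc was at 299 and 188 CP10k (0.629) and Lyz1 at 0.612, while Sftpa1 was at 0.982. The AT2 removal step chose on 4 genes of the same cells. The transitional epithelial list (Krt8, Krt18, Itgb6 and others), known from injured alveoli, was at 0.751 (0.714 to 0.790), with Itgb6 at 0.430 and Cdkn1a, an inhibitor of the cell cycle, at 1.35.

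Matrix genes of the wall were lower alongside. The basement membrane list, which shares Col4a3, Col4a4 and Lama3 with the AT1 list, had a ratio of 0.699 (0.679 to 0.721) and a median log2 ratio of -0.52. Of its 14 genes, 2 were at least 2-fold lower, and 0 with reduced totals. Hspg2, the proteoglycan perlecan, was at 0.459 and Col4a1 at 0.721. Lamc1, a laminin chain that most cells make, was at 1.21 (1.03 to 1.42). Among fibrillar collagens and elastic fibre genes (0.696, 0.671 to 0.721), Col1a1, Col1a2 and Loxl1 were at 0.409, 0.465 and 0.430, Eln was at 1.16 and the crosslinking enzyme Lox, from 94 and 111 counts, at 1.85. The alveolar fibroblast list was at 0.783 (0.770 to 0.796), with Npnt at 0.607 and Pdgfra at 1.08, and the pericyte list at 0.849 (0.815 to 0.884).

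Of the endothelial lists, those of all endothelium and of general capillary cells were near 1, aerocyte genes lower in sum and large vessel genes higher. The pan-endothelial list of 16 genes was at 119.3 and 120.8 CP10k (1.01, 0.999 to 1.03), and the general capillary list at 1.01 (0.983 to 1.03). Sox18, a transcription factor of endothelium, was the pan-endothelial member past 2-fold, with 356 and 518 counts, 2.28-fold higher (1.99 to 2.62). Aerocyte genes, of the thin capillary cells that face AT1 cells, were at 0.826 (0.800 to 0.852), with Emcn at 0.589, Apln at 0.540, and Ednrb and Prx near 1. The median log2 ratio of the aerocyte list was -0.15, near the -0.16 over all genes, and 0 of its 12 genes were past 2-fold. The large vessel list was at 1.64 (1.54 to 1.74), with 2 of 6 genes compared at least 2-fold higher, among them Vwf at 1.86 and 3.84 CP10k (2.06-fold, 1.89 to 2.25). The endothelial activation list was at 0.940 (0.905 to 0.976), with 1 of 5 genes compared at least 2-fold higher and 2 above 1. Icam1, the adhesion molecule on which leukocytes settle, was at 0.712 (0.676 to 0.750), and E-selectin had 1 and 0 counts. On reduced totals the pan-endothelial ratio was 1.10, and with the alternative AT1 genes as the rule 0.982.

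**Figure D3:**
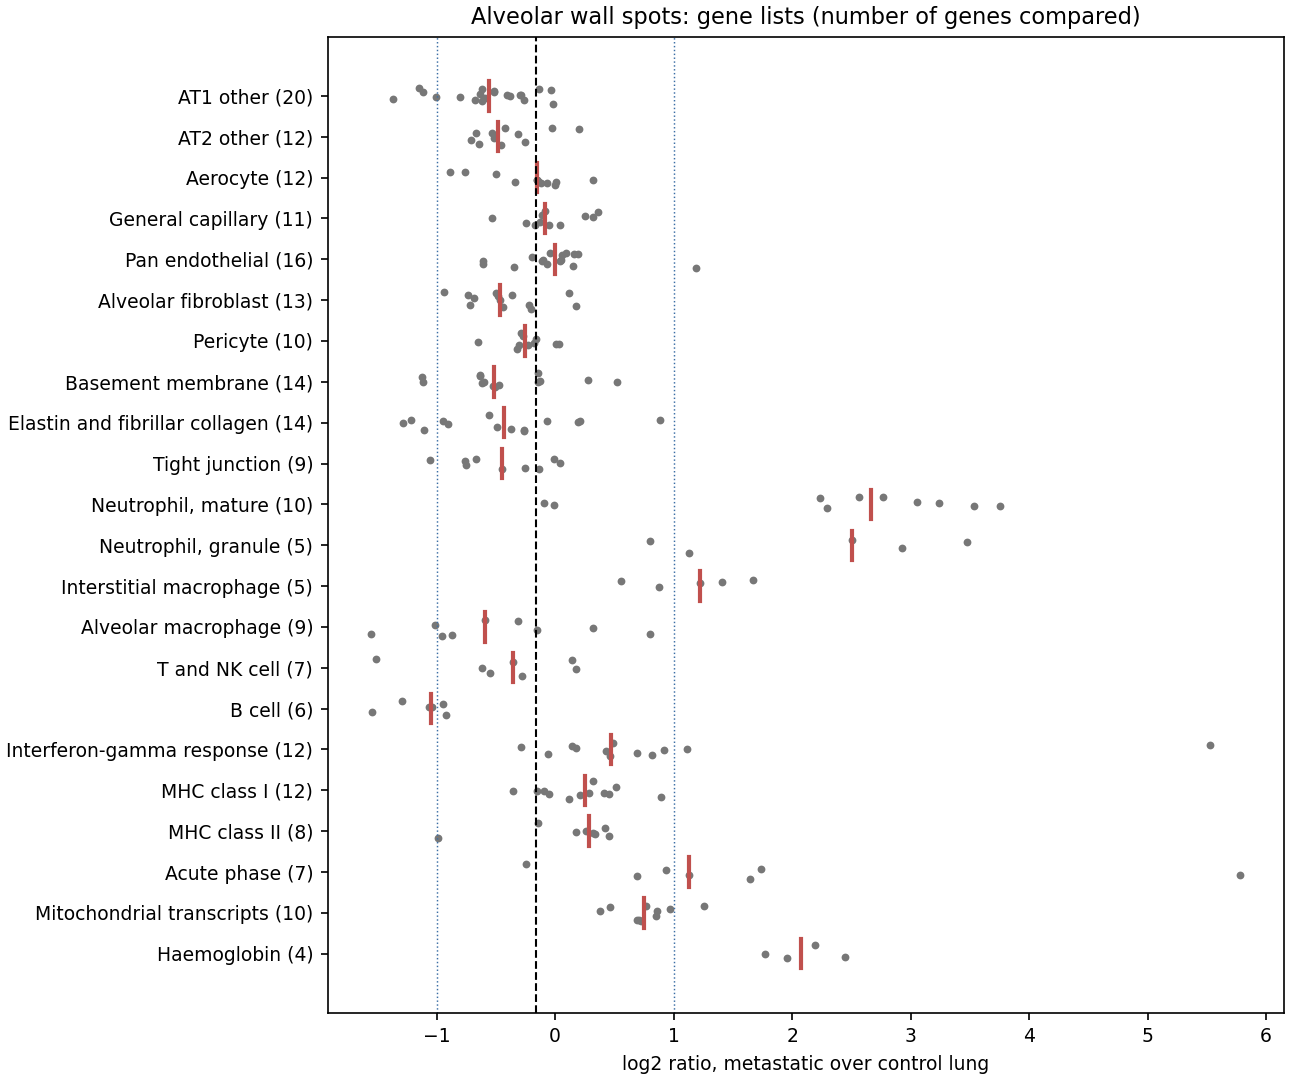
Log2 ratio of metastatic over control lung in alveolar wall spots (x axis) for the genes of the lists named on the y axis; each point is a gene with at least 100 counts, and the red bar is the list's median. The dashed line is the median of all 9207 genes (-0.16) and the dotted lines are 2-fold. Neutrophil lists lie above, B cell and AT1 lists below, endothelial lists near 0.

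Of interferon-gamma response genes, 2 of 12 compared were at least 2-fold higher and 10 had ratios above 1 (list ratio 1.49, 1.41 to 1.58; median log2 0.48). Cxcl9, a chemokine that draws T cells, had 4 and 132 counts (51.7-fold, 19.7 to 193), and Igtp, an interferon-inducible GTPase, was at 2.16. The list was higher still in the other spots, at 2.30 (2.22 to 2.39). MHC class I genes were at 1.22 (1.20 to 1.24), with the immunoproteasome subunit Psmb9 at 1.86, MHC class II genes at 1.07 (1.05 to 1.10; 0.891 with the control's AT1 cut), and type I interferon genes at 1.18 (1.11 to 1.26), and none of their members counted as past 2-fold. The complement list was at 1.23 (1.18 to 1.28), with a median log2 ratio of 0.07 and 7 of 11 genes compared above 1. Its factor Cfb was 4.61-fold higher (3.30 to 6.53) and C3 was at 1.60.

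Among genes with at least 200 counts, airway, haemoglobin, red blood cell and cardiac genes left out, the 10 highest ratios were those of Saa3, Ccl8, Wfdc17, S100a8, S100a9, Camp, Retnlg, Ngp, Csf3r and Wfdc21 (6.29 to 58.0). The 10 lowest were those of Cox6a2, Fabp3, Msln, Cdh13, Gpr153, Ighd, Gzma, Stmn1, BC067074 and Igfbp5 (0.153 to 0.372). Cox6a2 and Fabp3 are expressed in heart muscle, and the cardiac list was at 0.0666; their part in these values was not tested. Msln, of mesothelium, was at 0.302 beside a mesothelial list at 0.494. Stmn1, a regulator of microtubules, was at 2.17 and 0.757 CP10k (0.349, 0.302 to 0.402) and was counted in 80.8% and 52.3% of spots.

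Haemoglobin and mitochondrial transcripts were high in the same spots. Haemoglobin genes were at 156.8 and 591.3 CP10k (3.77-fold, 3.74 to 3.80) in the wall and at 0.627 in the other spots. The mitochondrially encoded transcripts were at 75.4 and 122.6 CP10k (1.63, 1.60 to 1.65), and all 10 compared had ratios above 1; in the other spots they stood at 0.731. Across the 281 metastatic wall spots, the rank correlation of both sums was 0.776, and across the 494 control wall spots 0.554, a description over spots that share depth and position. Both were negatively related to the counts per spot in the metastatic wall (-0.365 and -0.369). In spots with haemoglobin under 200 CP10k, 388 and 66 in number, the mitochondrial ratio was 0.765, below 1. In those spots, the ratio of the mature neutrophil list was 8.03, that of the neutrophil granule list 2.63 (2.88 in all wall spots) and that of Retnlg 7.25 (8.35). The ratio of Saa3 was 146.1 there, but it rests on few control counts, as the whole control wall held 9. Haemoglobin was also lowest nearest the metastasis-like spots, where Saa3 was highest, and blood content and distance were not separated.

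**Figure D4:**
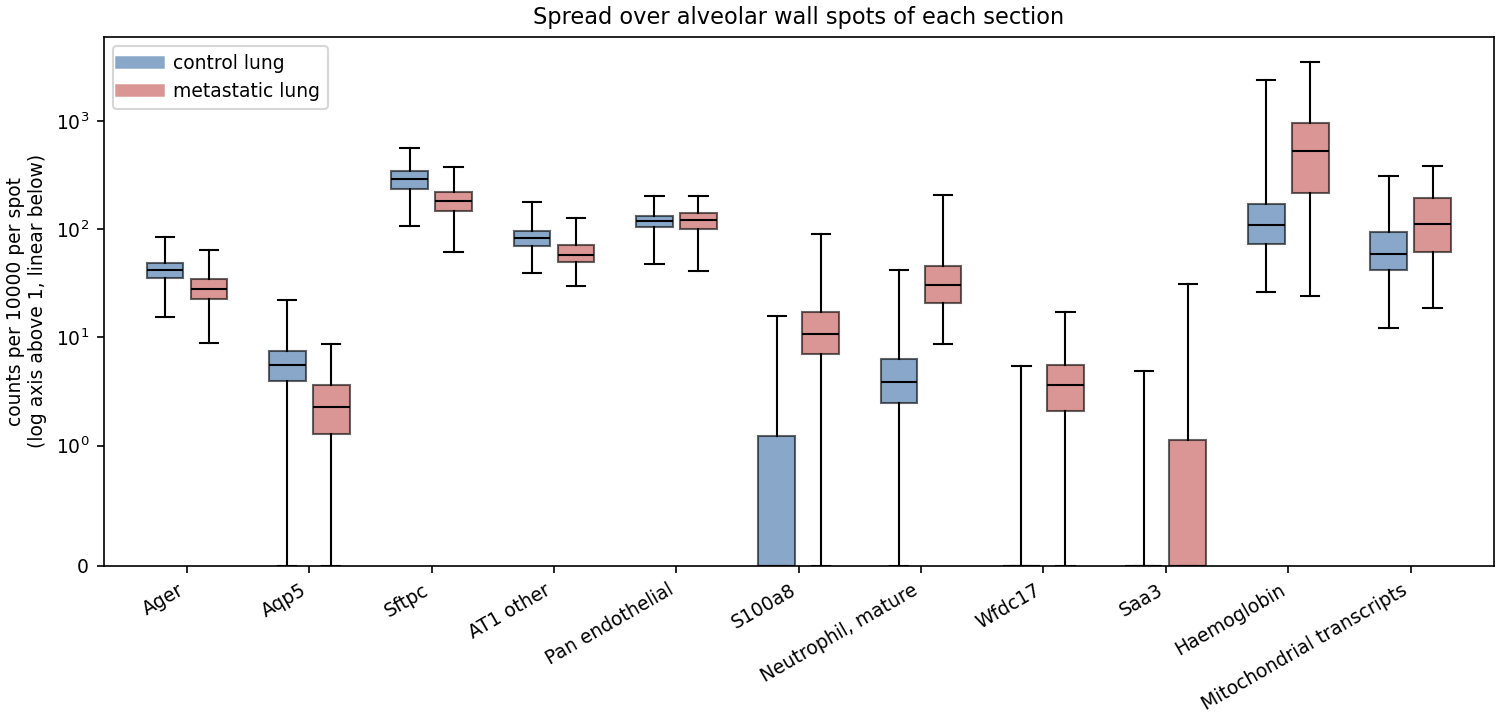
Spread over the 494 control and 281 metastatic alveolar wall spots, in counts per 10000 per spot (log axis above 1, linear below), for single genes and summed lists; boxes span the quartiles, the line is the median and whiskers reach the lowest and highest spot. Mature neutrophil genes (medians 3.88 and 30.6) and haemoglobin (109 and 527) are higher and AT1 genes (82.0 and 57.2) lower in the metastatic lung, with overlapping ranges.

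Distance from metastasis-like spots separated these patterns. Metastases were represented by 131 metastasis-like spots whose mean log level of S100a4, S100a6, Lgals1, Mif and Npm1 was above every control spot. Each also touched another such spot. This rule was chosen after seeing the data, as a first rule of proliferation and tumour genes found only 2 spots. The paper located its metastatic core by clustering cell type scores, checked against the stained image. That assignment was not used here, and the 131 spots were not compared with it. Of the 131, 2 were also wall spots. The wall spots of the metastatic lung lay up to 2100 µm from the metastasis-like spots. In number, 23, 58, 76 and 124 wall spots fell under 300, at 300 to 600, 600 to 1000 and over 1000 µm. The mature neutrophil list was at 40.7, 35.6, 40.8 and 39.2 CP10k in that order, and the AT1 list at 57.1, 62.5, 62.2 and 58.6. Against the control wall, the neutrophil list stood at 7.70 under 300 µm and 7.42 over 1000 µm, and the AT1 list at 0.686 and 0.704.

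Other genes were highest near the metastasis-like spots. Saa3 was at 2.67 CP10k (2.10 to 3.34) under 300 µm and 0.902 (0.751 to 1.07) over 1000 µm, Cxcl9 at 1.32 (0.926 to 1.81) and 0.336 (0.247 to 0.447), the interferon-gamma list at 12.1 and 6.43, and Igha at 2.03 and 0.637. S100a4, which the metastasis rule used, went from 3.20 to 1.38, and over 1000 µm it was still 3.13-fold above the control wall (2.56 to 3.81). Against the control wall, the T and NK cell list stood at 1.12 (0.909 to 1.37) under 300 µm and 0.557 (0.486 to 0.636) over 1000 µm. The B cell list stood at 0.756 and 0.441. The marrow-made granule genes ran the other way, with Camp at 0.213 (0.0783 to 0.464) and 0.837 (0.692 to 1.00) and Ngp at 0.213 and 0.737. Haemoglobin genes went from 137.3 CP10k under 300 µm to 795.5 over 1000 µm and mitochondrial transcripts from 52.4 to 165.0. The nearest bin therefore had a haemoglobin level below the control wall's 156.8, and the part of blood content in the trends with distance was not tested.

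**Figure D5:**
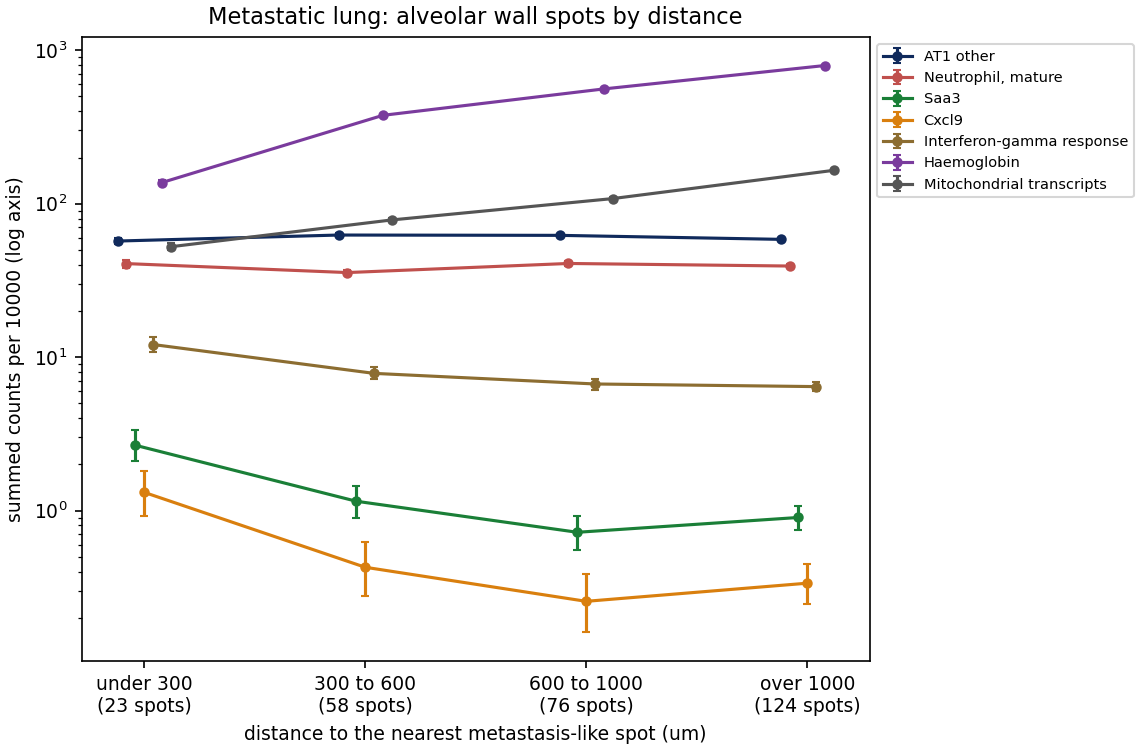
Summed counts per 10000 (log axis) in metastatic alveolar wall spots, by distance to the nearest metastasis-like spot (µm, number of spots in brackets), with exact 95% Poisson intervals as bars. The mature neutrophil list stays between 35.6 and 40.8 and the AT1 list between 57.1 and 62.5, while Saa3 and Cxcl9 are highest, and haemoglobin and mitochondrial transcripts lowest, under 300 µm.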

How the data were processed

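Visium libraries were made from 1 control and 1 metastatic lung section. The deposited values are molecule counts for each feature in each tissue-covered spot, which the authors made without normalization; the submitters' processing notes name Space Ranger 1.3.1 and mm10. The files hold 32285 features, and 40 symbols stood for more than 1 feature; the first kept the symbol. There were 0 columns of other samples.

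Spots were chosen within each section as described above, with at least 1000 counts per spot. Wall counts were summed per section, and genes were compared where both sections together had at least 100 counts. A gene was called where its log2 ratio, with a pseudocount of 0.5 counts, was at least 1 in size. Intervals of ratios come from the exact binomial distribution (95%) of a gene's counts between both sections, and those of levels from the Poisson distribution. With 1 section per group, no test was possible.

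The spot rule and the 55 gene lists were chosen with earlier results of these data known. The genes named were members of the lists and the 10 highest and 10 lowest ratios among genes with at least 200 counts, without airway, haemoglobin, red blood cell and cardiac genes. Metastases were first located by proliferation and tumour genes, which found only 2 spots; the rule of 5 genes used here was chosen after seeing the data. The alternatives were reduced totals, centring on the median gene, the top 20% or 40% of spots, no AT2 removal, at least 2000 counts per spot, other AT1 genes, removal of airway and muscle spots, a distance of 500 µm from tumour-like spots, thinning to 5000 counts, per-spot means, and gene minimums of 20 and 500 counts. A distance of 500 µm from metastasis-like spots, haemoglobin under 200 CP10k and the control's AT1 cut were added after seeing the data. One gene of the lists is not reported here by name. The code was tested on simulated counts. Scripts ran under Python 3.11.15 (numpy 2.4.6; scipy 1.17.1; pandas 2.3.3; matplotlib 3.10.9).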

Additional observations from a re-analysis of the deposited data

How the results depend on the processing

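With 1 section per group, the settings show only how far each value depends on the choice of spots, totals and genes. Over 14 settings, 20 of 20 genes with the highest and lowest ratios and 30 of 37 lists stayed on the same side of 1. Those 20 genes were picked for extreme ratios in these same counts, so their result was close to fixed by the choice. The list ratios crossing 1 were those near it (general capillary, pan-endothelial, nonclassical monocyte, alveolar macrophage, MHC class II and endothelial activation) and the mitochondrial one (0.765 to 1.85). No paired analysis was possible because each group holds 1 section and the shared number in the titles pairs nothing.

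The mature neutrophil ratio of 7.39 was 8.05 with reduced totals, 8.28 centred on the median gene, 8.16 with the top 20% of spots, 6.73 with other AT1 genes, 8.03 in spots low in haemoglobin and 7.89 with the control's AT1 cut. In the same order the acute phase ratio of 2.34 became 2.55, 2.62, 2.52, 2.47, 2.52 and 2.11. The AT1 ratio of 0.723 was 0.788 with reduced totals, 0.811 when centred, 0.745 and 0.708 with the top 20% and 40% of spots, 0.746 in spots low in haemoglobin and 0.874 with the control's cut. The basement membrane ratio of 0.699 was 0.762 with reduced totals, 0.784 when centred, 0.677 with the top 40% of spots, 0.760 in spots low in haemoglobin and 0.770 with the control's cut.

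The number of genes at least 2-fold higher went from 85 to 42 when spots were thinned to 5000 counts, 52 with the control's cut, 261 at a minimum of 20 counts and 22 at 500. The number at least 2-fold lower went from 132 to 83 with reduced totals, 73 when centred, 420 at a minimum of 20 counts and 29 at 500. Thinning and the gene minimums change how many genes are compared; for the other changes the cause was not tested. At a median near 10000 counts per spot, Saa3 or Camp was not detectable in most spots.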

Other observations

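Genes of the circadian clock were lower in the metastatic wall as a list, at 15.0 and 11.3 CP10k (0.749, 0.719 to 0.780). The output gene Dbp was at 0.586 (0.534 to 0.643), Nr1d1 at 0.611, Per1 at 0.636 and Per3 at 0.638, while Per2 was at 1.63 (1.31 to 2.04) and Cry1 at 1.25. The list was at 0.719 in the other spots of the sections, so the values were alike inside and outside the wall. The hour of collection is not given in the sources used here.

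Stress genes gave single high members in lists that were level. Heat shock genes were at 1.02 (0.988 to 1.06) as a list, with the inducible chaperone genes Hspa1a and Hspa1b at 3.06 (2.10 to 4.53) and 2.59. Glucocorticoid-responsive and metallothionein genes were at 1.08 (1.03 to 1.12), with Mt2 at 5.32 (3.46 to 8.43) and Fkbp5, a glucocorticoid target, at 2.40. Of immediate early genes (0.984, 0.948 to 1.02), Junb was at 3.49 (2.81 to 4.34) and Fos at 0.913. The glucose transporter Slc2a1 was 3.24-fold higher (2.25 to 4.73) in a hypoxia and glycolysis list at 0.911 (0.881 to 0.942). The cell cycle list was at 0.620 (0.575 to 0.668), but 1 of 9 genes compared was past 2-fold and the median log2 ratio was -0.34. That gene, Stmn1, held 1070 of 2479 control counts and 238 of 980 metastatic counts of the list, and Mki67 was at 0.784.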
